A study of Mus musculus with 6 samples.

Results

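Mast cells made up 71 of the 42259 cell barcodes within the quality limits, pooled over 6 single-cell RNA libraries made with 4T1, a mouse triple-negative mammary carcinoma line. They were chosen by their proteases: a barcode with at least 300 genes and at most 20% mitochondrial counts was taken as a mast cell where Cpa3, Tpsb2, Cma1 and Mcpt4 together reached 30 per 10000 unique molecular identifiers (UMIs, each standing for a captured RNA molecule). The 3 libraries labelled shPgk1 held 9, 5 and 14 of these cells and the 3 shNC libraries held 25, 13 and 5. The levels of those 4 genes are therefore a description, and so is every comparison of mast cells with the other 42188 cells.

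The series set 4T1 cells carrying a short hairpin RNA against Pgk1 (shPgk1), the gene of the glycolytic enzyme phosphoglycerate kinase, beside 4T1 cells carrying a non-targeting hairpin (shNC). Per the labels, both groups were transduced with lentivirus, given 48 h, and then kept in puromycin (2 µg/mL) over 7 days, and the droplet libraries came from suspensions of over 80% viable cells. The series' design text gives 3 biological replicates per group and the labels name an epithelial line, and the source of the mast cells (a host, its strain or age) is not given in the labels used here. Pgk1 stood at 324, 324 and 349 CPM in the libraries labelled shPgk1 and 350.1, 340.2 and 313 CPM in the shNC libraries over all cells other than mast cells (CPM, counts per 1000000 UMIs of a summed group of cells). In barcodes with 50 or more UMIs per 10000 of the tumour markers Epcam, Krt8, Krt18, Krt19 and Cldn4 (tumour-marker barcodes), which made up 11.6, 21.4 and 19.0% of barcodes in the libraries labelled shPgk1 and 7.06, 8.40 and 8.27% of barcodes in the shNC libraries, Pgk1 stood at 248, 299 and 323 CPM in the libraries labelled shPgk1 and 298, 264 and 242 CPM in the shNC libraries. The groups overlapped over both sets of cells. Which cells carried the hairpin is not given in the labels, and the libraries are therefore called by their label.

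Mast cells are long-lived immune cells of tissues whose granules hold proteases, histamine, serotonin and heparin-like polymers. They bind IgE through a high-affinity receptor and release their granules when it is crosslinked, and they depend on the receptor Kit. In mice, mucosal mast cells are known for the chymases Mcpt1 and Mcpt2, while connective tissue mast cells are known for the chymases Mcpt4 and Cma1, the tryptases Tpsb2 and Tpsab1, and carboxypeptidase Cpa3. Cma1, Cma2, Mcpt1, Mcpt9, Mcpt2, Mcpt4, Mcpt8, Ctsg and Gzmb, 9 genes in all, lie within 321 kb of chromosome 14 (55941451 to 56262260, GRCm38, GENCODE M21), while Tpsb2, Tpsab1 and Tpsg1 lie on chromosome 17 and Cpa3 on chromosome 3.

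The sequences around the transcription starts of 3 of the proteases that chose the cells, and of Mcpt1, the most abundant gene in them, are shown because these genes were high in the same cells and because Gata2, a transcription factor that binds GATA motifs, was high there too. Each runs 5′ to 3′ on the gene's strand, from 250 bases before the start to 50 bases after it, and is taken from RefSeq (GRCm38.p6). Capitals mark the motif GATAA, searched on both strands, where its reverse complement reads TTATC. The windows are chr3:20242132-20242431 (minus strand) for Cpa3, chr14:55944626-55944925 (minus strand) for Cma1, chr14:56062261-56062560 (minus strand) for Mcpt4 and chr14:56017714-56018013 (plus strand) for Mcpt1.
Cpa3: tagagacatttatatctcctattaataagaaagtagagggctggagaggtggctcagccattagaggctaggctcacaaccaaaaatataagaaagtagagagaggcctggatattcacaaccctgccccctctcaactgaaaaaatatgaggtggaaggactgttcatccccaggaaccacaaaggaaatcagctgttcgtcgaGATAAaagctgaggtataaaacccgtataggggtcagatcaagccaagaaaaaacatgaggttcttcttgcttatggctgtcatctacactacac
Cma1: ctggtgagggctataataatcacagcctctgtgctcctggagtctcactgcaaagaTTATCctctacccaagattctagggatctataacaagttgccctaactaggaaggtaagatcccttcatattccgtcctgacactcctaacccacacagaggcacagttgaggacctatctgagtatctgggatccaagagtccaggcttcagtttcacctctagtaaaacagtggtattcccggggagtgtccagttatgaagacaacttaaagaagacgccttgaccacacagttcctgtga
Mcpt4: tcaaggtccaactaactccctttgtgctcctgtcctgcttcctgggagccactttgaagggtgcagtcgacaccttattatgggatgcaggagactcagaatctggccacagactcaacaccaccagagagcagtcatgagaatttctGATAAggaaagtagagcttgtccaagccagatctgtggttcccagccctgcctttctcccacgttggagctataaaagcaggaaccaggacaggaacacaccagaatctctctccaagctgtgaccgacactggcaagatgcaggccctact
Mcpt1: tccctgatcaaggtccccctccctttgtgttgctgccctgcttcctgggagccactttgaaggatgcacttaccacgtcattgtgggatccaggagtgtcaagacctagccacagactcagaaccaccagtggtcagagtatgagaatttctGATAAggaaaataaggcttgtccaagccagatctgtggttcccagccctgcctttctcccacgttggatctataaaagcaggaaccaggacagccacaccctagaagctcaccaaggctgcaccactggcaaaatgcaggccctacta
Each of these 4 windows held 1 GATAA. Of the 12 mast cell proteases followed here, 8 had a RefSeq window, and 5 of these held the motif in the first window listed. Over all 32817 windows of this length the share with the motif was 25.4% (8341). Besides the 4 shown, Tpsg1 held 2 in 1 window and 0 in its other window. The windows of Mcpt9, Ctsg and Gzmb held none, which says only that these letters were not there. Nor did those of Mcpt8, Hdc, Kit, Gata2 and Tph1, while Fcer1a held 1 and Ms4a2 held 3. No enrichment of the motif was tested. Mcpt1 and Mcpt2 are shown by the first 90 bases of their coding sequences (GRCm38, GENCODE M21), because their counts move together below and reads could be shared between close copies. Capitals mark the 2 positions at which they differ.
Mcpt1: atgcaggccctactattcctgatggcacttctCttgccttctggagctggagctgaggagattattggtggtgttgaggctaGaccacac
Mcpt2: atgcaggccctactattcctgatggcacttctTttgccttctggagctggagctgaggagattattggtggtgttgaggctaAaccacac
Over these 90 bases 88 were the same, and the longest identical run between their transcripts was 49 bases. None of the 50-base windows was shared (0 of 965 for Mcpt1 and 0 of 1012 for Mcpt2). A read of 50 bases or more could therefore not match both exactly, while shorter or mismatched reads could. The read length is not given here, so their counts may or may not be split. Between Tpsb2 and Tpsab1 the longest run was 39 bases. Cma2 shared 40.9% of its 50-base windows with Mcpt9 and 6.46% with Mcpt4, so counts of these 3 can be split between copies and those of Cma2 are uncertain.

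The mast cells were as deep as the rest. Their median was 11235 UMIs and 2598 genes, against 10112 UMIs and 2488 genes in the other cells, and 14 of the 71 held under 2000 UMIs. Mitochondrial counts had a median of 0.693% in mast cells and 0.856% in the other cells. No mast cell passed a Scrublet doublet score of 0.25 (highest 0.187), while 825 of all barcodes within the limits did. The rule's 4 proteases ranged from 30.5 to 782 per 10000 UMIs, with a median of 177. The gap below the limit was wide: the highest barcode outside stood at 19.9, only 3 lay between 15 and 30, and 6 members lay between 30 and 50. The 6 libraries held 78778073 to 128933960 UMIs and 6203 to 7696 barcodes within the limits. Names of barcodes are numbered per library, so their recurrence in several libraries (11389 names) does not show shared cells.

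Mast cell genes that the rule did not use were found in a larger share of members than of the other cells. Fcer1a, the IgE-binding chain of the receptor, had a UMI in 54 of 71 mast cells (76.1%), against 0.375% of the other cells and 0.222% of the 5402 tumour-marker barcodes (median depth 11184 UMIs), which should lack it. With each cell thinned to 2000 UMIs, leaving 57 mast cells (22 labelled shPgk1 and 35 shNC) and out 14, the shares were 59.6% of mast cells and 0.0547% of the other cells. Kit, the stem cell factor receptor, was seen in 76.1% of mast cells and 5.09% of the others, and thinned in 29.8% of mast cells and 1.24% of the others. Ms4a2, the receptor's beta chain, was seen in 47.9% of mast cells and 0.0759% of the others, and thinned in 17.5% of mast cells and 0.0208% of the others. Fcer1a, Ms4a2 and Kit were all at 0 in 7 members, 4 of which had under 2000 UMIs. Ptprc, the pan-leukocyte gene, was at 0 in 36 of the 71.

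A member of shNC library 1 stood apart from its label. It held 795 UMIs of Mcpt8 and 646 of Prss34, proteases known from basophils, with 60 of Cpa3, none of Tpsb2, Cma1 or Mcpt4, and 1 of Mcpt2. Cd200r3, also listed as a basophil gene, had 35 UMIs there, Hdc 38 and Gata2 32. A UMI of these 3 genes was found in 30, 44 and 55 of the 71 mast cells, this cell included. Hdc was higher in another member (62 UMIs). By count, no member held more Cd200r3 (35 of all 99 UMIs) or Gata2 (32 of 377) than this cell. It had the lowest level under the rule, met it through Cpa3 only, and results that rest on it are given with and without it.

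The genes that dominated these cells were not those that chose them. Mcpt1 and Mcpt2, the mucosal-type chymases, were the most abundant genes of all in mast cells and gave 45.5% and 30.4% of the 12 proteases' UMIs. The tryptase Tpsab1 gave 10.2%. The rule's own genes gave less: Cma1 3.52%, Mcpt4 3.41%, Tpsb2 3.35% and Cpa3 1.10%. These are UMI shares within cells and are not corrected for transcript length. Cma2 gave 1.54%, Gzmb 0.532%, Mcpt9 0.322%, Ctsg 0.0536% and the tryptase Tpsg1 0.0173%.

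Mcpt1 stood at 42792, 91897 and 82672 CPM in the libraries labelled shPgk1 and 97196, 68127 and 106372 CPM in the shNC libraries. Library 1 labelled shPgk1 was the lowest. Mcpt2 stood at 36642, 59769 and 51347 CPM in the libraries labelled shPgk1 and 61766, 50585 and 74325 CPM in the shNC libraries, again lowest in that library, and the groups overlapped. Tpsab1 stood at 35993, 7060.0 and 16274 CPM in the libraries labelled shPgk1 and 16979.6, 20143 and 14674 CPM in the shNC libraries. Here library 1 labelled shPgk1 was the highest and library 2 labelled shPgk1 the lowest of the 6.

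Among the rule's genes, Cma1 stood at 11171, 7691 and 1594 CPM in the libraries labelled shPgk1 and 6849, 7527 and 4831 CPM in the shNC libraries. Mcpt4 varied least, at 9147, 6179.6 and 5237 CPM in the libraries labelled shPgk1 and 6205, 4414 and 7614 CPM in the shNC libraries. Tpsb2 stood at 12643, 2675 and 5508 CPM in the libraries labelled shPgk1 and 6785, 3203 and 2284 CPM in the shNC libraries. Cpa3, which trims peptides from their carboxyl ends, stood at 3846, 1927 and 1078 CPM in the libraries labelled shPgk1 and 2148, 1699 and 1191 CPM in the shNC libraries, and both Tpsb2 and Cpa3 were highest in library 1 labelled shPgk1. In all other cells each of the 4 averaged 0.833 to 2.14 CPM. Mcpt1 averaged 25.7 CPM in the other cells and had a UMI in 24.8% of them and in 20.6% of tumour-marker barcodes. Whether any of these cells make it was not tested. Thinned to 2000 UMIs the shares were 93.0% in mast cells, 5.44% in the other cells and 3.84% in tumour-marker barcodes.

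Together the 12 proteases took 15.3, 17.9 and 16.5% in the libraries labelled shPgk1 and 20.6, 15.8 and 21.6% in the shNC libraries of all mast cell UMIs, and the groups overlapped (two-sided exact permutation test, n = 3 each, p = 0.3). The smallest p that 3 libraries against 3 can give is 0.1. In single cells the proteases ranged from 0.417 to 32.4% of the cell's UMIs, with a median of 16.3%.

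Cells carried different mixes of the proteases. Mcpt1 led in 47 of the 71 cells, Tpsab1 in 13, Mcpt2 in 4, Tpsb2 in 3, Mcpt4 in 2, Cpa3 in 1 and Cma1 in 1. Mcpt1 and Mcpt2 made up over 50% of protease UMIs in 49 cells and under 10% in 8. The 8 cells fell 0, 0 and 0 in the libraries labelled shPgk1 and 5, 2 and 1 in the shNC libraries, a cut chosen after the values were seen and not tested, and 1 of them was the Mcpt8-led cell. Most members held chymases of both named mast cell types: 56 of 71 held 10 or more UMIs of Mcpt1 or Mcpt2 together with 10 or more of Cma1 or Mcpt4, and 44 held the tryptases too. Cma1, Mcpt4 and Tpsb2 are among the genes that chose the cells, so these counts are partly set by the rule. Cells with Mcpt1 and Mcpt2 but little of the rule's genes were left out by it. Tpsb2 and Tpsab1 were both at 0 in 11 cells, while Cma1 and Mcpt4 were both at 0 in 1, the Mcpt8-led cell.

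**Figure D1:**
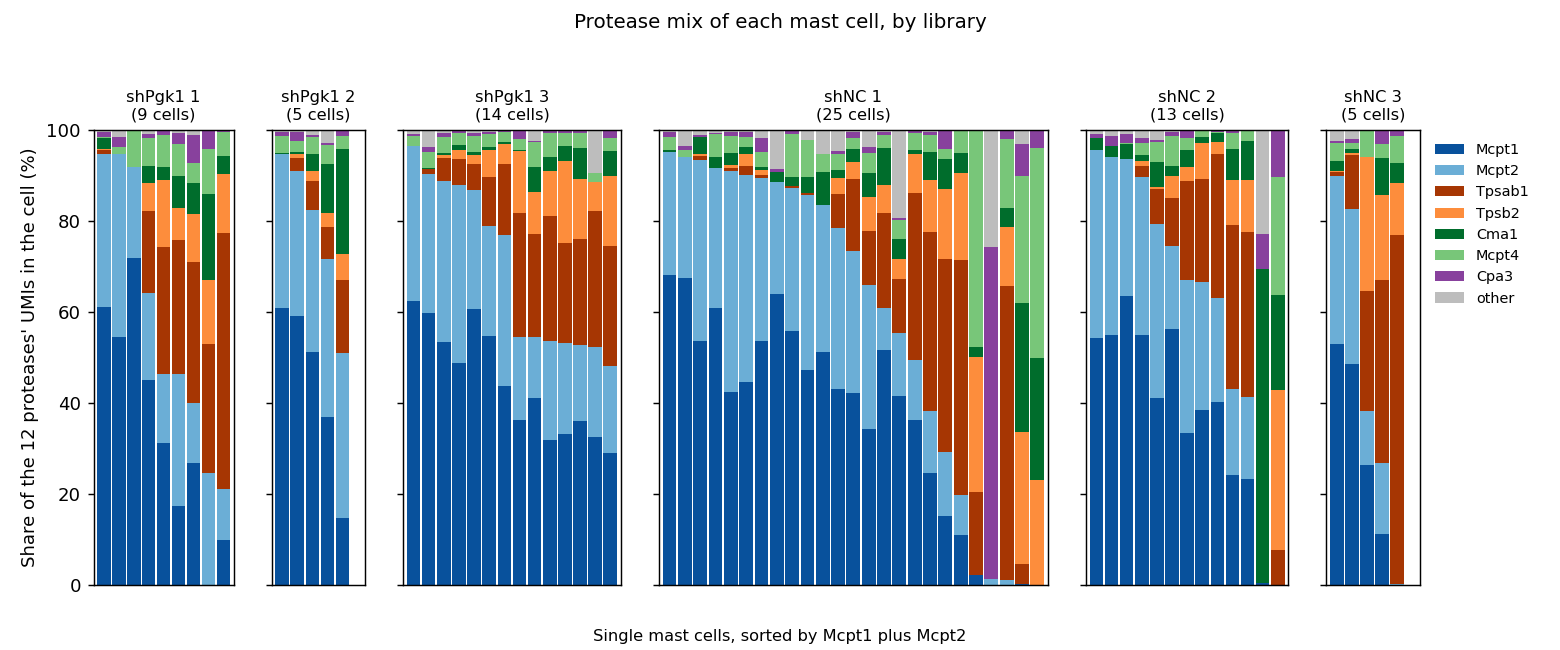
Each bar is a mast cell and shows, in percent, how the UMIs of 12 proteases divide in it, by library, with libraries labelled shPgk1 on the left and shNC libraries on the right. Mcpt1 leads in 47 of 71 cells, and the 8 cells with under 10% Mcpt1 plus Mcpt2 lie in the shNC libraries, 5 of them in library 1. The shNC libraries hold 43 of the 71 cells, and this cut was chosen after the values were seen.

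Within these cells the tryptases Tpsb2 and Tpsab1 moved together, as did Mcpt1 with Mcpt2. Cma1 followed Tpsb2 about as closely as Mcpt4. Levels per UMI were compared across the 57 cells with 2000 UMIs or more. Spearman rho was 0.89 for Tpsb2 with Tpsab1, 0.79 for Mcpt1 with Mcpt2 and 0.54 for Cma1 with Mcpt4. The counts of Mcpt1 and Mcpt2 could share short or mismatched reads, which was not tested. Between kinds, rho was 0.53 for Tpsb2 with Cma1, 0.17 for Mcpt1 with Mcpt4, 0.08 for Mcpt1 with Cma1 and -0.20 for Mcpt1 with Tpsb2. Tpsb2, Cma1, Mcpt4 and Cpa3 also chose the cells by their sum. Cpa3 followed Fcer1a (0.63) more than Tpsb2 (0.15). These are descriptions over cells of 6 libraries that share each library's depth, and the proteases' shares of a cell's UMIs limit each other.

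**Figure D2:**
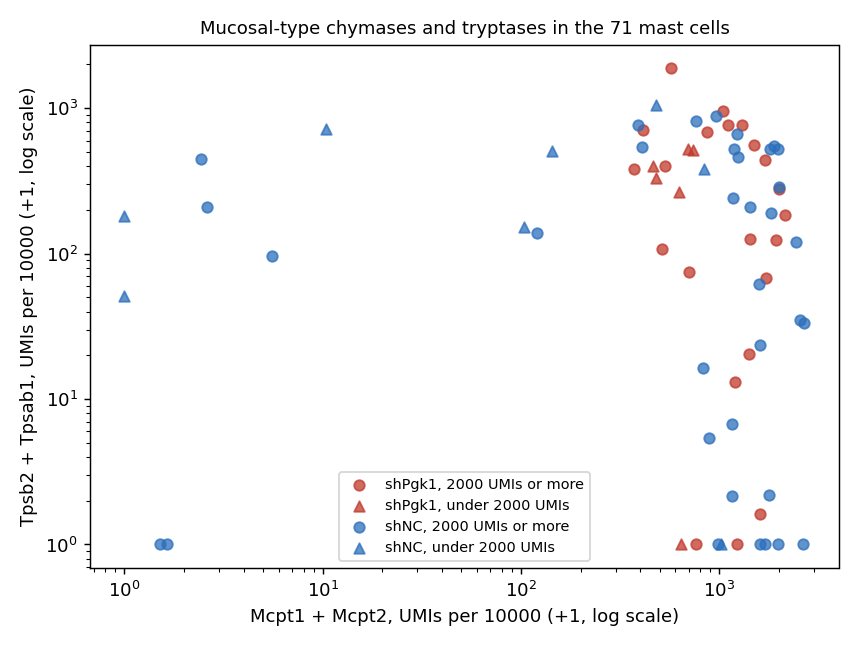
Each point is a mast cell, with Mcpt1 plus Mcpt2 per 10000 UMIs across and Tpsb2 plus Tpsab1 per 10000 UMIs upward, both with 1 added on log scales; circles have 2000 UMIs or more, triangles fewer, red is shPgk1 and blue is shNC. Most cells lie at the right over a wide range of tryptase levels. All the cells with almost no Mcpt1 or Mcpt2 are from shNC libraries, which hold 43 of the 71 cells, and this was not tested.

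The share of mast cells did not separate the groups. It was 0.134, 0.0674 and 0.189% of barcodes in the libraries labelled shPgk1 and 0.325, 0.210 and 0.0731% in the shNC libraries, with exact (Clopper-Pearson) 95% intervals of 0.0614 to 0.255%, 0.0219 to 0.157% and 0.104 to 0.318% in the libraries labelled shPgk1 and of 0.210 to 0.479%, 0.112 to 0.358% and 0.0237 to 0.170% in the shNC libraries, which cover counting error only. The means were 0.130 ± 0.0611% in the libraries labelled shPgk1 and 0.202 ± 0.126% in the shNC libraries (SD, n = 3 each). The difference of -0.0722 points lay within the spread of the libraries (exact permutation test, p = 0.4). Within the shNC libraries the interval of library 1 lay wholly above that of library 3.

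The protease mix by library did not separate the groups either. Mcpt1 plus Mcpt2 made up 51.9, 84.5 and 81.2% in the libraries labelled shPgk1 and 77.1, 75.1 and 83.6% in the shNC libraries. Library 1 labelled shPgk1 stood apart at the low end and the other 5 lay between 75.1 and 84.5%. The means were 72.5 ± 18.0% in the libraries labelled shPgk1 and 78.6 ± 4.44% in the shNC libraries (SD, n = 3 each), a difference of -6.11 points (exact permutation test, p = 0.9). Without library 1 labelled shPgk1 the difference was 4.22 points (exact permutation p = 0.3), and as the mean of each cell's own share it was 12.6 points (exact permutation p = 0.3), so the direction depends on how the cells are weighted. Without 1 deep cell of shNC library 3, the cell with the most Il13 of all, it was 0.535 points.

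The tryptases Tpsb2 and Tpsab1 mirrored this, at 31.8, 5.43 and 13.2% in the libraries labelled shPgk1 and 11.5, 14.8 and 7.85% in the shNC libraries. Library 1 labelled shPgk1 was the highest and library 2 labelled shPgk1 the lowest. Their means differed by 5.41 points (exact permutation p = 0.8), or by -1.80 points without that cell of shNC library 3. The chymases Cma1 and Mcpt4 made up 13.3, 7.73 and 4.14% in the libraries labelled shPgk1 and 6.34, 7.56 and 5.76% in the shNC libraries, with a difference of 1.83 points (exact permutation p = 0.7). Cpa3 made up 2.51, 1.07 and 0.653% in the libraries labelled shPgk1 and 1.04, 1.07 and 0.551% in the shNC libraries, with a difference of 0.523 points (exact permutation p = 0.5). Over these 4 measures every adjusted p was 0.9.

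Of the 12 proteases taken singly, Gzmb, the granzyme B gene that mast cells also use, had libraries that did not overlap between the groups. It made up 0.154, 0.389 and 0.276% in the libraries labelled shPgk1 and 0.425, 0.725 and 1.74% in the shNC libraries of protease UMIs (exact permutation p = 0.1, the smallest possible, and 0.96 adjusted over the 12). Of its 271 UMIs in shNC library 3, 268 came from 1 cell. Among the 4 rule proteases alone, Tpsb2 made up 34.3, 14.5 and 41.1% in the libraries labelled shPgk1 and 30.9, 19.0 and 14.3% in the shNC libraries, and Cma1 made up 30.3, 41.6 and 11.9% in the libraries labelled shPgk1 and 31.1, 44.7 and 30.3% in the shNC libraries. Both overlapped between the groups (exact permutation p = 0.4 and 0.5).

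**Figure D3:**
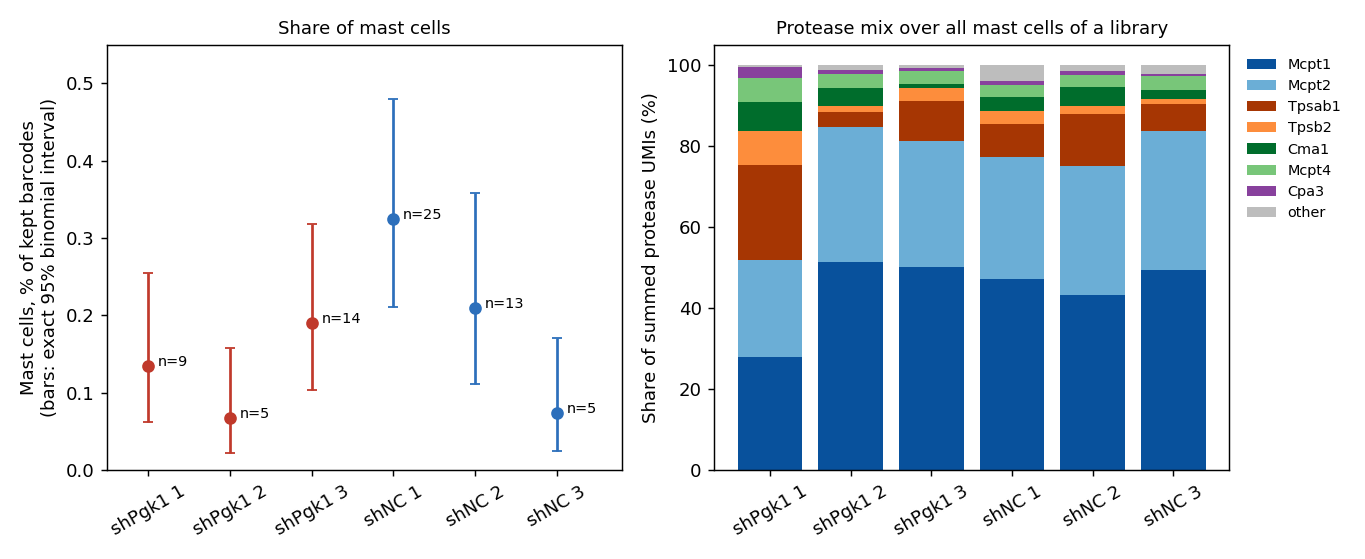
The left panel plots mast cells as a percent of barcodes in each library, with exact 95% binomial intervals and the number of cells, and the right panel stacks the shares of summed protease UMIs in percent. Intervals of the groups overlap, and library 1 labelled shPgk1 has 51.9% Mcpt1 plus Mcpt2 where the other 5 have 75.1 to 84.5%.

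Beyond the proteases, mast cells carried the receptors, enzymes and factors known from this cell type. The cells were selected on proteases, so what follows is a description of mean CPM over the 6 libraries in mast cells beside the other cells. Over the 1310 genes with 100 CPM or more on either side, 131 (10%) were at least 2-fold higher (with 5 CPM added) and higher in all 6 libraries, and 240 (18.3%) were as much lower.

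Of the IgE receptor and its signalling genes, 4 of the 6 at this level (of 12 listed) were higher. Fcer1a averaged 799.6 ± 615 CPM in mast cells and 0.261 ± 0.164 CPM in the other cells (SD, n = 6 libraries). Its library values ran from 463 to 2033 CPM in mast cells. Ms4a2, the receptor's signalling beta chain, averaged 109 CPM in mast cells and 0.0524 CPM in the other cells, and the adaptors Lat and Lat2 averaged 233 CPM in mast cells and 11.6 CPM in the other cells, and 228 CPM in mast cells and 29.7 CPM in the other cells. Fcer1g, a gamma chain shared with macrophages, averaged 1218 CPM in mast cells and 1071 CPM in the other cells, and Lyn, the kinase that starts the signal, 132 CPM in mast cells and 96.9 CPM in the other cells.

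All 5 receptors at this level (of 10 listed) were higher. Kit averaged 228 ± 59.5 CPM in mast cells and 6.06 ± 2.06 CPM in the other cells. Il1rl1, the receptor for IL-33, averaged 330.3 CPM in mast cells and 6.38 CPM in the other cells. Csf2rb, the beta chain common to the IL-3 and GM-CSF receptors, stood at 385 CPM in mast cells and 135 CPM in the other cells, Csf2rb2, the mouse beta chain of the IL-3 receptor alone, at 238 CPM in mast cells and 29.1 CPM in the other cells, and Il2rg, the common gamma chain, at 126 CPM in mast cells and 55.7 CPM in the other cells. Of the integrins of mucosal homing, Itgb7 averaged 258 CPM in mast cells and 33.2 CPM in the other cells, and Itgae, which pairs with it, 109 CPM in mast cells and 4.90 CPM in the other cells, both of the 2 at this level (of 4 listed).

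Of the transcription factors, 1 of 3 at this level (of 10 listed) was higher. Gata2, a factor of the mast cell and stem cell lineages, stood at 473, 299 and 350.5 CPM in the libraries labelled shPgk1 and 563, 276 and 221 CPM in the shNC libraries, while the other cells lay at 0.628 to 1.09 CPM. Runx1 averaged 184 CPM in mast cells and 205 CPM in the other cells, and Bhlhe40 179 CPM in mast cells and 141 CPM in the other cells. Mitf, the melanocyte and mast cell factor, was below the level, at 62.6 CPM in mast cells and 21.4 CPM in the other cells.

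Granule and amine genes were higher in 5 of 7 at this level (of 10 listed). Tph1, the rate-limiting enzyme of serotonin synthesis, averaged 710.0 ± 252 CPM in mast cells and 0.307 ± 0.186 CPM in the other cells. Hdc, which makes histamine, averaged 475 ± 319 CPM in mast cells and 11.6 ± 6.12 CPM in the other cells, with library values of 79.4 to 910.4 CPM. Srgn, the core protein of the granule's proteoglycan, averaged 2705 CPM in mast cells and 728 CPM in the other cells. Cd63, a granule membrane protein, averaged 4039 CPM in mast cells and 782 CPM in the other cells, and Rab27b, which moves granules, 266 CPM in mast cells and 4.17 CPM in the other cells. For lipid mediators, Alox5, the first enzyme of leukotriene synthesis, averaged 188 CPM in mast cells and 1.22 CPM in the other cells, and its partner Alox5ap 490.4 CPM in mast cells and 101 CPM in the other cells, which were 2 of the 3 at this level (of 9 listed).

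Of the cytokines and chemokines, 3 of 8 at this level (of 17 listed) were higher in every library: Il13, Il4 and Il6. Il13, a type 2 cytokine, had 3, 3 and 7 UMIs in the libraries labelled shPgk1 and 44, 30 and 169 UMIs in the shNC libraries. A UMI of it was found in 17 of the 71 cells and 163 of the 256 UMIs came from 1 cell of shNC library 3. Il4 had 6, 2 and 5 UMIs in the libraries labelled shPgk1 and 34, 7 and 59 UMIs in the shNC libraries, seen in 30 cells, and 57 of its 113 UMIs came from 1 cell of that same library. Il6 averaged 136 CPM in mast cells and 13.0 CPM in the other cells. Il5 had no UMI in any mast cell.

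Receptors known from connective tissue mast cells were scarce. None of the 6 listed reached the level: Mrgprb2, the receptor for basic secretagogues, had 3, 0 and 0 UMIs in the libraries labelled shPgk1 and 3, 0 and 1 UMIs in the shNC libraries, and Mrgprb1 had 8, 0 and 0 UMIs in the libraries labelled shPgk1 and 8, 0 and 4 UMIs in the shNC libraries. Adora3, the adenosine A3 receptor, averaged 33.9 CPM in mast cells and 2.08 CPM in the other cells, and Mrgprx1 had none.

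Other genes far above the rest were found by size alone. The 20 largest folds held, beside genes named so far, Mcpt9 (569 CPM in mast cells and 0.125 CPM in the other cells), Serpinb1a (626 CPM in mast cells and 3.81 CPM in the other cells), an inhibitor of granule proteases, and Itga2b (476 CPM in mast cells and 3.75 CPM in the other cells), the integrin chain of platelets and megakaryocytes. Cyp11a1, the first enzyme of steroid synthesis, averaged 334 ± 169.6 CPM in mast cells and 0.536 ± 0.404 CPM in the other cells and had a UMI in 55 of the 71 cells. Slc24a3, a sodium and calcium exchanger, averaged 240.4 CPM in mast cells and 2.80 CPM in the other cells. Gzma, granzyme A, averaged 923 CPM in mast cells and 21.9 CPM in the other cells, with 300 of its 662 UMIs from 1 cell of shNC library 3. Prss34 was among them through 1 cell, the Mcpt8-led one, and Cma2 through shNC library 1, where 2344 of its 2506 UMIs lay.

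Most markers of other cells were lower than in the other cells as a whole, with exceptions. Of the macrophage markers, 5 of 5 at this level (of 6) were lower: Apoe averaged 1354 CPM in mast cells and 6447 CPM in the other cells, Lyz2 288 CPM in mast cells and 1306 CPM in the other cells, and Cd68 26.0 CPM in mast cells and 133 CPM in the other cells. Their summed level was 1163 to 2907 CPM over the mast cells of a library, and 6 mast cells held 50 or more per 10000 UMIs (highest 172). Tumour epithelial markers were lower too, 4 of 4 at this level (of 5): Krt8 averaged 259 CPM in mast cells and 683 CPM in the other cells, and no mast cell reached 50 per 10000 UMIs over the tumour list. Fibroblast collagens (3 of 3 at this level, of 4) and S100a8 and S100a9 of neutrophils (2 of 2, of 4) were also lower. These sums include the cells that make each gene. The per-cell medians, per 10000 UMIs of each list, were 22.5 in mast cells and 24.7 in the other cells for macrophage markers, 4.37 in mast cells and 3.52 in the other cells for fibroblast markers, 1.52 in mast cells and 1.34 in the other cells for neutrophil markers and 4.43 in mast cells and 9.89 in the other cells for tumour markers. None of the 4 endothelial and 5 T and NK markers reached the level. The endothelial gene Pecam1, also carried by leukocytes, averaged 98.4 CPM in mast cells and 28.4 CPM in the other cells and was higher in 5 of 6 libraries, while Plvap was at 0, Cdh5 averaged 4.13 CPM in mast cells and 7.63 CPM in the other cells and Egfl7 12.5 CPM in mast cells and 12.4 CPM in the other cells. Cd3e averaged 57.3 CPM in mast cells and 24.4 CPM in the other cells and was higher in 3 of 6 libraries, while the other T and NK markers were lower on average, with Klrb1c at 0, Cd3d at 8.50 CPM in mast cells and 29.0 CPM in the other cells, Trac at 3.24 CPM in mast cells and 23.2 CPM in the other cells and Nkg7 at 19.9 CPM in mast cells and 42.9 CPM in the other cells. Cd79a, Ms4a1 and Xcr1 of B and dendritic cells were at 0.

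**Figure D4:**
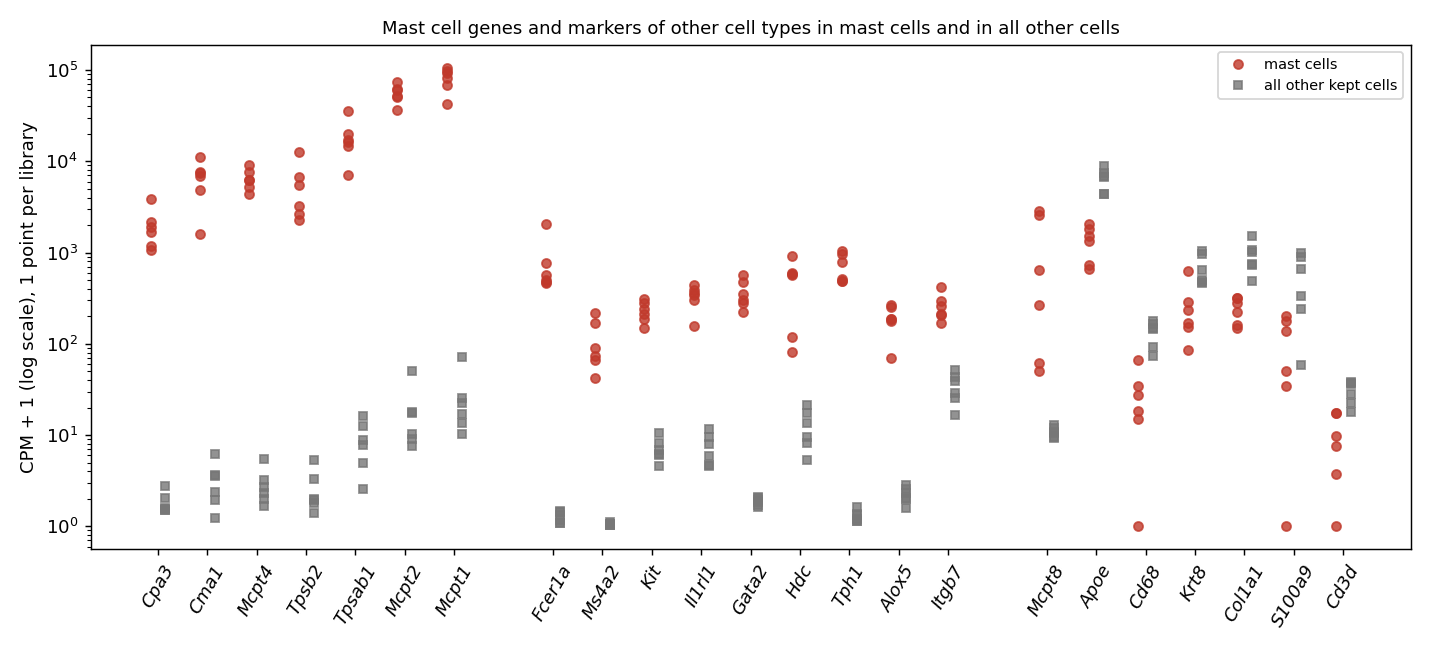
CPM with 1 added, on a log scale, of summed UMIs in mast cells (red circles) and in all other cells (grey squares), 1 point per library, for proteases, other mast cell genes and markers of other cells. Mcpt1 spans 42792 to 106372 CPM in mast cells, and Apoe, Krt8 and Col1a1 are lower in mast cells than in the other cells in every library.

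Genes of energy use and of stress were also set beside the rest. Of 15 glycolysis genes at this level (of 16), Slc2a3, a glucose transporter, was higher (111 CPM in mast cells and 8.25 CPM in the other cells), and Eno1, Hk2, Slc2a1 and Pfkl were lower. Hk2 averaged 113 CPM in mast cells and 280.3 CPM in the other cells. Of 8 immediate early and heat shock genes at this level (of 10), Fosb, Egr1 and Dnajb1 were higher, with Fosb at 1581 CPM in mast cells and 463 CPM in the other cells. None of the 10 cell cycle genes reached the level, and Mki67 averaged 32.4 CPM in mast cells and 32.6 CPM in the other cells.

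Whether mast cells differed between the hairpins was tested on UMIs summed per library. With edgeR's quasi-likelihood test, 0 of 1185 genes passed an adjusted p of 0.05 in either direction (0% higher and 0% lower), 92 had an unadjusted p below it, and the median log2 fold of all genes was 0.02. DESeq2 called 13 of 967 genes (3 higher, 10 lower, with 133 at an unadjusted p below 0.05). None of the 13 passed in DESeq2 once 1 cell of shNC library 3 was left out, a run with a heavier adjustment of p-values. Each library's sum rests on 5 to 25 cells and 60198 to 358902 UMIs.

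Pgk1 itself had 21, 12 and 12 UMIs in the libraries labelled shPgk1 and 66, 21 and 20 UMIs in the shNC libraries in mast cells, or 184, 199 and 79.4 CPM in the libraries labelled shPgk1 and 184, 171 and 277 CPM in the shNC libraries (edgeR, log2 fold -0.54 ± 0.42, adjusted p = 0.844). The 4 rule proteases and the 7 other proteases tested held no gene that passed, with median log2 folds of 0.23 and -0.54. None passed among the 6 IgE receptor, 5 receptor, 4 transcription factor, 7 granule, 2 lipid mediator, 2 integrin, 6 cytokine and 13 glycolysis genes tested either, and the medians were 0.28, 0.19, -0.10, -0.06, 0.11, -0.16, -2.52 and -0.46. No test was made of these medians.

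The smallest p-values fell on genes whose libraries did not overlap, though no adjusted p passed in edgeR. Non-overlap of 3 libraries with 3 gives no exact permutation p below 0.1. The share of all 1185 genes without overlap is not given here, so non-overlap is only a description. Tph1 had 55, 29 and 78 UMIs in the libraries labelled shPgk1 and 281, 118 and 75 UMIs in the shNC libraries, or 482, 482 and 516 CPM in the libraries labelled shPgk1 and 783, 959 and 1038 CPM in the shNC libraries. Every library labelled shPgk1 was below every shNC library (edgeR, log2 fold -0.97 ± 0.25, adjusted p = 0.297). Without the cell with the most Il13, shNC library 3 held 13 UMIs (edgeR, log2 fold -0.61 ± 0.32, adjusted p = 0.919). Hdc was not among the 5 smallest p-values of its direction (edgeR, unadjusted p = 0.0663) and is given as a granule gene. It stood at 569.5, 116 and 79.4 CPM in the libraries labelled shPgk1 and 577, 910.4 and 595 CPM in the shNC libraries. Libraries 2 and 3 labelled shPgk1 were low and library 1 was just below the lowest shNC library (edgeR, log2 fold -1.48 ± 0.68, adjusted p = 0.633). Without library 1 labelled shPgk1, Hdc alone passed (edgeR, log2 fold -2.93 ± 0.38, adjusted p = 0.0267).

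On the higher side, the nuclear noncoding RNA Malat1 stood at 1884, 2807 and 2665 CPM in the libraries labelled shPgk1 and 1499, 959 and 955 CPM in the shNC libraries (edgeR, log2 fold 1.04 ± 0.22, adjusted p = 0.248). Klf2, a transcription factor of quiescent leukocytes, stood at 613, 681 and 456 CPM in the libraries labelled shPgk1 and 189, 260.1 and 69.2 CPM in the shNC libraries (edgeR, log2 fold 1.64 ± 0.36, adjusted p = 0.248; DESeq2, log2 fold 1.56 ± 0.43, adjusted p = 0.0232). Hbegf, a ligand of the EGF receptor, had 18, 27 and 15 UMIs in the libraries labelled shPgk1 and 8, 2 and 4 UMIs in the shNC libraries (edgeR, log2 fold 2.93 ± 0.68, adjusted p = 0.248; DESeq2, log2 fold 2.87 ± 0.74, adjusted p = 0.0159), 23 of the 27 in library 2 labelled shPgk1 from 1 cell. Prkca, a kinase C, and Ubash3b, a phosphatase of receptor signalling, had edgeR log2 folds of 1.76 and 1.49 (adjusted p = 0.248 each). Jun, an immediate early factor, stood at 3890.2, 3904 and 2519 CPM in the libraries labelled shPgk1 and 1457, 2089 and 844 CPM in the shNC libraries, above every shNC library in each library labelled shPgk1 (edgeR, log2 fold 1.18 ± 0.27, adjusted p = 0.280; DESeq2, log2 fold 1.10 ± 0.32, adjusted p = 0.0491).

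On the lower side, Cdkn1a, the cell cycle inhibitor p21, had an edgeR log2 fold of -1.28 ± 0.35 (adjusted p = 0.320), and the noncoding gene AY036118 -0.71 ± 0.19 (adjusted p = 0.297). S100a9, a subunit of calprotectin in neutrophils, had 0, 3 and 5 UMIs in the libraries labelled shPgk1 and 72, 22 and 10 UMIs in the shNC libraries (edgeR, log2 fold -2.85 ± 0.60, adjusted p = 0.248; DESeq2, log2 fold -2.93 ± 0.78, adjusted p = 0.0159). In the other cells S100a9 stood at 58.0, 329 and 242 CPM in the libraries labelled shPgk1 and 885, 999 and 662 CPM in the shNC libraries, in the same direction, and the 4 neutrophil markers summed to 17.5, 66.4 and 72.7 CPM in the libraries labelled shPgk1 and 359, 415 and 166 CPM in the shNC libraries in mast cells, with Retnlg at 0 in 4 of the 6 libraries and Csf3r at 0 in 5. Apoe, the macrophage apolipoprotein, had an edgeR log2 fold of -1.06 ± 0.27 (adjusted p = 0.297), beside macrophage markers summing to 2374, 1163 and 1356 CPM in the libraries labelled shPgk1 and 2343, 2853 and 2907 CPM in the shNC libraries. The part of other cells' RNA in these values was not tested.

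Type 2 cytokine and basophil genes were uneven between libraries, and few cells carried most of their UMIs. Il13 stood at 26.3, 49.8 and 46.3 CPM in the libraries labelled shPgk1 and 123, 244 and 2339.5 CPM in the shNC libraries (edgeR, log2 fold -4.55 ± 1.69, adjusted p = 0.622; DESeq2, log2 fold -4.69 ± 1.31, adjusted p = 0.0282), and all 4 cells with 10 or more UMIs were from shNC libraries. The Mcpt8-led cell was 1 of the 4, with 30. Il4 stood at 52.6, 33.2 and 33.1 CPM in the libraries labelled shPgk1 and 94.7, 56.9 and 817 CPM in the shNC libraries and was too low for the edgeR test (DESeq2, log2 fold -3.17 ± 0.84, adjusted p = 0.0159). Ccl1, a chemokine of type 2 responses, had 3, 0 and 2 UMIs in the libraries labelled shPgk1 and 136, 49 and 246 UMIs in the shNC libraries. Single cells held 109, 43 and 245 of the UMIs in the 3 shNC libraries (edgeR, log2 fold -6.56 ± 1.69, adjusted p = 0.471; DESeq2, log2 fold -6.80 ± 1.44, adjusted p = 0.00214). Without shNC library 3 it alone passed in edgeR (log2 fold -4.61 ± 0.53, adjusted p = 0.00264).

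Mcpt8 had 7, 3 and 40 UMIs in the libraries labelled shPgk1 and 933, 80 and 206 UMIs in the shNC libraries (edgeR, log2 fold -3.97 ± 0.98, adjusted p = 0.469; DESeq2, log2 fold -4.16 ± 0.96, adjusted p = 0.00351). The Mcpt8-led cell held 795 of the 933 in shNC library 1, and 1 cell held all 206 in shNC library 3. Gzmb had 27, 42 and 69 UMIs in the libraries labelled shPgk1 and 314, 141 and 271 UMIs in the shNC libraries (edgeR, log2 fold -2.18 ± 0.84, adjusted p = 0.633; DESeq2, log2 fold -2.26 ± 0.50, adjusted p = 0.00214). Ccl4, a chemokine for lymphocytes and monocytes, had 39, 52 and 36 UMIs in the libraries labelled shPgk1 and 572, 88 and 180 UMIs in the shNC libraries (edgeR, log2 fold -1.88 ± 0.72, adjusted p = 0.622; DESeq2, log2 fold -1.96 ± 0.48, adjusted p = 0.00652), 441 of those in shNC library 1 from 1 cell. Without the Mcpt8-led cell, which held the 441 UMIs of Ccl4 as well, no gene passed in edgeR, and 5 of the 13 DESeq2 calls were lost, those of Mcpt8, Il13, Il4, Ccl4 and Jun (log2 folds of -3.55, -4.65, -3.19, -1.53 and 1.07, adjusted p = 0.101, 0.106, 0.337, 1.000 and 0.0656). With all mast cells, DESeq2 also called Ptgs2, Mt1 and Pomgnt1 lower, at log2 folds of -3.02, -1.93 and -2.69.

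Of the UMIs in shNC library 3, 1 cell held 268 of 271 of Gzmb, 544 of 576 of Mt1, 33 of 36 of Ptgs2, 245 of 246 of Ccl1, 175 of 180 of Ccl4, all 206 of Mcpt8 and 163 of 169 of Il13. This was the mast cell with the most Il13, and it also held 300 UMIs of Gzma. Without it, 0 genes passed in edgeR (69 at an unadjusted p below 0.05) and 0 in DESeq2. The loss of all 13 DESeq2 calls also reflects a heavier adjustment of p-values in this run. Here Pomgnt1 had an unadjusted p of 8.03e-05 and an adjusted p of 0.557 (DESeq2). Without the Mcpt8-led cell instead, Hbegf had 0.000137 unadjusted and 0.0188 adjusted (DESeq2). Without the cell with the most Il13, Gzmb had a DESeq2 log2 fold of -0.70 ± 0.98 (adjusted p = 0.999), Mt1 -0.67, Mcpt8 -3.21, Il13 -2.18, Ptgs2 -1.81 and Ccl1 -4.32 (adjusted p = 0.0536 for Ccl1). The folds of Klf2, Jun, Hbegf and S100a9, of which this cell held few UMIs, were 1.45, 0.99, 2.88 and -2.81 (DESeq2). With this cell left out, the sum of shNC library 3 rests on 4 cells.

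**Figure D5:**
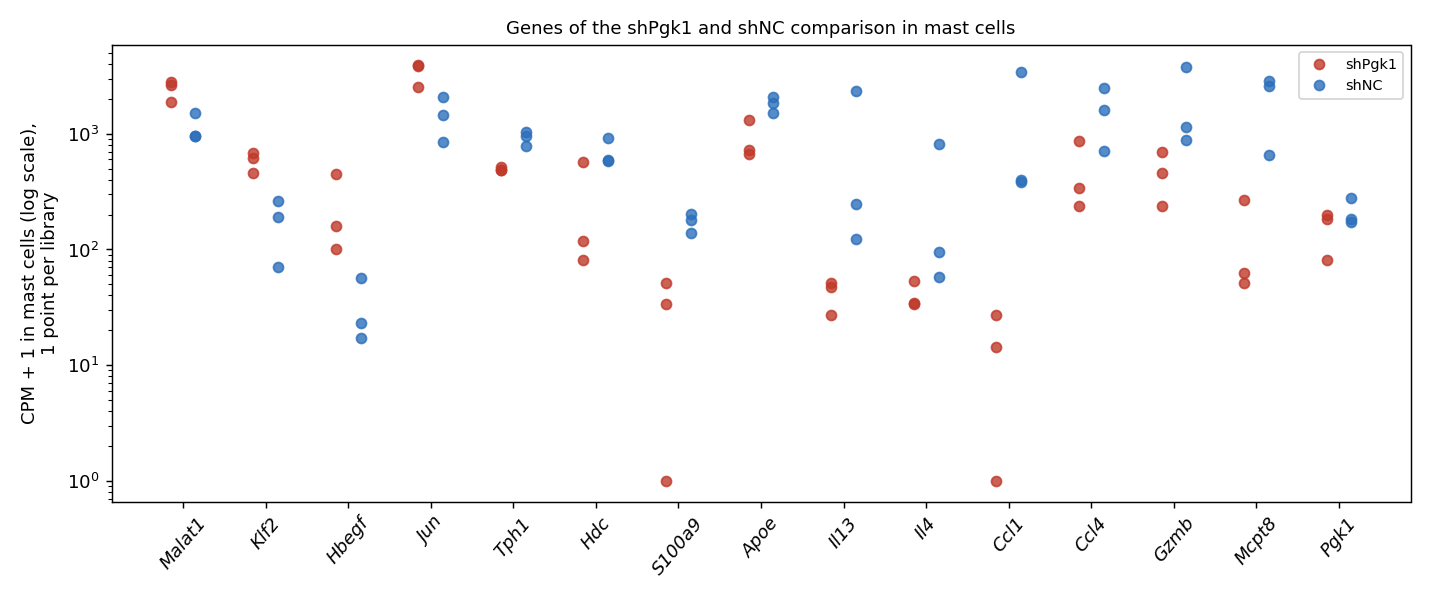
CPM with 1 added, on a log scale, of genes in summed mast cells, 1 point per library, with libraries labelled shPgk1 (red) left of shNC libraries (blue). Tph1 and S100a9 lie lower and Klf2 and Jun higher in all 3 libraries labelled shPgk1, while Ccl1 and Il13 reach 3405 and 2339.5 CPM in shNC library 3, most of it from 1 cell.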

How the data were processed

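Single-cell RNA was measured in 6 libraries. The authors deposited 1 matrix per library of raw UMI counts per gene and barcode. PISA 0.12 made them per the file headers, and per the submitters' processing notes Seurat 4 was used and GRCh38 (hg38) was named as the build, although the gene names are those of mouse. Neither an aligner, an annotation nor the handling of reads matching several loci was found in the sources used, so these are not given here.

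Of 42902 deposited barcodes, 643 were left out under the limits of 300 genes and 20% mitochondrial counts, and none of these met the protease level. Doublets were scored with Scrublet (scanpy 1.11.5, expected rate 0.06) and were kept in the main results, since the rule has no doublet limit. Raw counts were summed per library over mast cells and over all other cells, and CPM was computed from these sums. Shares were compared between 3 and 3 libraries by two-sided exact permutation tests. Genes were tested with edgeR 4.0.16 (quasi-likelihood, TMM, filterByExpr, Benjamini-Hochberg over all genes tested, threshold 0.05), in a script tested on simulated data, with DESeq2 1.42.0 as an alternative. Standard errors of edgeR folds are the size of the log2 fold over the square root of F, and those of DESeq2 folds are the ones DESeq2 gives. Genes named are all 12 proteases, up to 6 further members of each of 21 lists by CPM in mast cells, the 20 largest folds over the other cells, and the 5 smallest p in each direction where fewer than 5 passed; genes called under an alternative were named after their values were seen. The members, lists and tests were chosen with earlier results of these data known. p-values measure the spread between libraries. Columns of other samples numbered 0.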

Additional observations from a re-analysis of the deposited data

How the results depend on the processing

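The difference in mast cell share (libraries labelled shPgk1 minus shNC) stayed below 0 under every alternative run, from -0.137 to -0.0110 points with each library left out, and -0.0466 points among barcodes with a Ptprc UMI. The share of Mcpt1 plus Mcpt2 did not keep its direction: it reversed to 12.6 points as the mean of each cell's own share and to 4.22 points without library 1 labelled shPgk1, was 0.535 points without the cell with the most Il13, and ranged over -12.1 to 4.22 points with each library left out. Under the same 2 settings the tryptases reversed to -7.53 and -2.08 points (and to -1.80 without that cell), the chymases Cma1 and Mcpt4 to -2.56 and -0.616, and Cpa3 to -1.21 and -0.0261, with leave-one-out ranges of -2.08 to 11.1, -0.616 to 3.95 and -0.0261 to 0.903 points; with only the 4 rule proteases as the total, the chymases reversed to -9.08. The cause was not tested beyond the construction of these settings. The edgeR count of 0 genes became 29 with no filter on low counts (13956 genes tested) and 13 with DESeq2, and was 0 to 1 with each library left out. It was 3 with the replicate block (Jun, Ccl1 and Mcpt8). Deviations of same-numbered libraries had r = -0.0764, 0.0115 and -0.0815, and those of differently numbered ones -0.0336 to 0.127. Sums over 5 to 25 cells are too noisy for this to show whether the numbers pair the libraries. Limits of 15 and 100 per 10000 UMIs, a doublet limit of 0.25, a mitochondrial limit of 10% and RLE scaling changed no edgeR call, and neither did leaving out the Mcpt8-led cell or the cell with the most Il13, leaving out cells under 2000 UMIs or adding cells with 30 or more Mcpt1 plus Mcpt2 per 10000 UMIs, which were chosen after seeing the data. With 5 cells in each of 2 libraries, single cells set many values.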

Other observations

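Among the 20 genes farthest below the other cells, chosen by size alone, Bcl2a1b, a survival gene of the BCL2 family, averaged 22.4 CPM in mast cells and 219 CPM in the other cells (n = 6 libraries). Cxcl9, an interferon-induced chemokine, averaged 25.1 CPM in mast cells and 205 CPM in the other cells. Arg1, arginase, averaged 55.3 CPM in mast cells and 353 CPM in the other cells, Tgfbi 28.3 CPM in mast cells and 227 CPM in the other cells, and Sparc, a matrix protein, 166 CPM in mast cells and 885 CPM in the other cells.

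A few barcodes outside the rule carried related proteases. Mcpt1 plus Mcpt2 reached 30 per 10000 UMIs in 4 of them, and Mcpt8 did so in 11. The barcode nearest below the limit, in library 3 labelled shPgk1, held 6 UMIs of Cpa3, 79 of Mcpt1, 30 of Mcpt2 and 9 of Gata2 among 3013. Another, in library 2 labelled shPgk1, held 350 UMIs of Mcpt1 and 113 of Mcpt2 with a Scrublet score of 0.329.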
